A study of Mus musculus with 6 samples.

Results

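Mitochondria translate their own small genome on a dedicated ribosome, the mitoribosome, whose proteins are all encoded in the nucleus, made in the cytosol and imported. Mammalian mitoribosomal proteins are named Mrpl where they were first assigned to the large subunit, which forms peptide bonds, and Mrps where they were first assigned to the small subunit, which binds the mRNA and holds the decoding centre. The large subunit is attached to the inner membrane near its exit tunnel, so that the proteins it makes, all of them in mammals core parts of the respiratory chain or of the ATP synthase, can be inserted there. The genes described here are the rows of the deposited count table whose symbol is Mrpl or Mrps followed by digits and optional letters, without pseudogenes. There were 78 of them among 27179 genes, 49 Mrpl and 29 Mrps, and they were chosen by name alone.

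Their mRNA was followed in mouse embryonic stem cells (mESCs), kept on gelatin in medium with serum and LIF, that express Tfe3-ERT2. Tfe3 is a basic helix-loop-helix leucine zipper transcription factor of the MiT/TFE family, and the ERT2 domain, a mutated hormone-binding domain of the oestrogen receptor, holds the fusion outside the nucleus until 4-hydroxytamoxifen is added. In the 4OHT group (n = 3 libraries) cells had 4-hydroxytamoxifen at 1 µg per mL for 48 h, and in the EtOH group (n = 3 libraries) they had ethanol, its vehicle. Both groups carry the fusion, and no sample treated with 4-hydroxytamoxifen but lacking it was analysed here, so the agent and the fusion protein's entry into the nucleus cannot be told apart. The sources used here do not say which promoter drives the fusion, whether the cells are 1 clone or how the replicates were made. Where they came from the same culture, a p-value would reflect technical spread alone.

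Library totals were 4648374, 5567195 and 6427880 counts in 4OHT and 4984364, 4384615 and 4092877 counts in EtOH, and no library stood apart from its group. Pluripotency markers were expressed in both groups, with a summed level of 5450 to 5508 CPM in 4OHT and 4253 to 4328 CPM in EtOH, with CPM the usual counts scaled to 1 common library size by TMM factors. Of 8 of them 5 were higher and 1 lower in 4OHT. Trophectoderm markers summed to 1002 to 1035 CPM in 4OHT and 471 to 494 CPM in EtOH, with 7 of 8 tested genes (11 listed) higher and none lower; of the defining genes Elf5 had at most 1 count in a library and Cdx2 between 5 and 14. Primitive endoderm markers (3 of 7 tested) and fibroblast markers (3 of 7 tested) had no called gene. Endoderm markers summed to 23.2 to 28.1 CPM in 4OHT and 15 to 23.0 CPM in EtOH and fibroblast markers to 17.5 to 21.9 CPM in 4OHT and 13.5 to 21.4 CPM in EtOH, and the fibroblast gene Lum was at 0 in every library. The trophectoderm and pluripotency markers moved with the same groups as the genes below, and their part in those results was not tested. Tfe3, whose count pools the endogenous gene with whatever part of the fusion shares its sequence, averaged 832 ± 4.34 CPM in 4OHT and 1038 ± 35.1 CPM in EtOH (SD, n = 3 each), a log2 fold change of −0.32 (SE 0.03, edgeR adjusted p = 9.8e-19).

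Many more mitoribosomal protein mRNAs were called lower in 4OHT than higher, all by small amounts. Of the 78 genes, 76 passed the filter on low counts and were tested, and 31 of them fell in 4OHT while 1 rose (edgeR's quasi-likelihood test, adjusted p under 0.05 over all 12345 tested genes). The background was large: 20.6% of all tested genes were called lower and 21.4% higher, against 40.8% and 1.32% of the tested mitoribosomal genes. A further 35 had a value below zero without passing the test and 9 a value above it, so that 66 of 76 lay below zero. The median log2 fold change was −0.15, beside 0.00 over all tested genes, and the values ran from −0.48 to 0.25. With DESeq2 in place of edgeR 19 members were lower and 0 higher, against 14.3% and 15.6% of all genes, with limma-voom 30 and 1, against 20.3% and 20.9%, and at an edgeR threshold of 0.01 23 and 0, against 15.4% and 16.8%. With offsets for GC content and gene length the median was −0.10, and 25 were lower and 2 higher, against 20.7% and 21.4% of the 11928 genes tested with them.

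**Figure D1:**
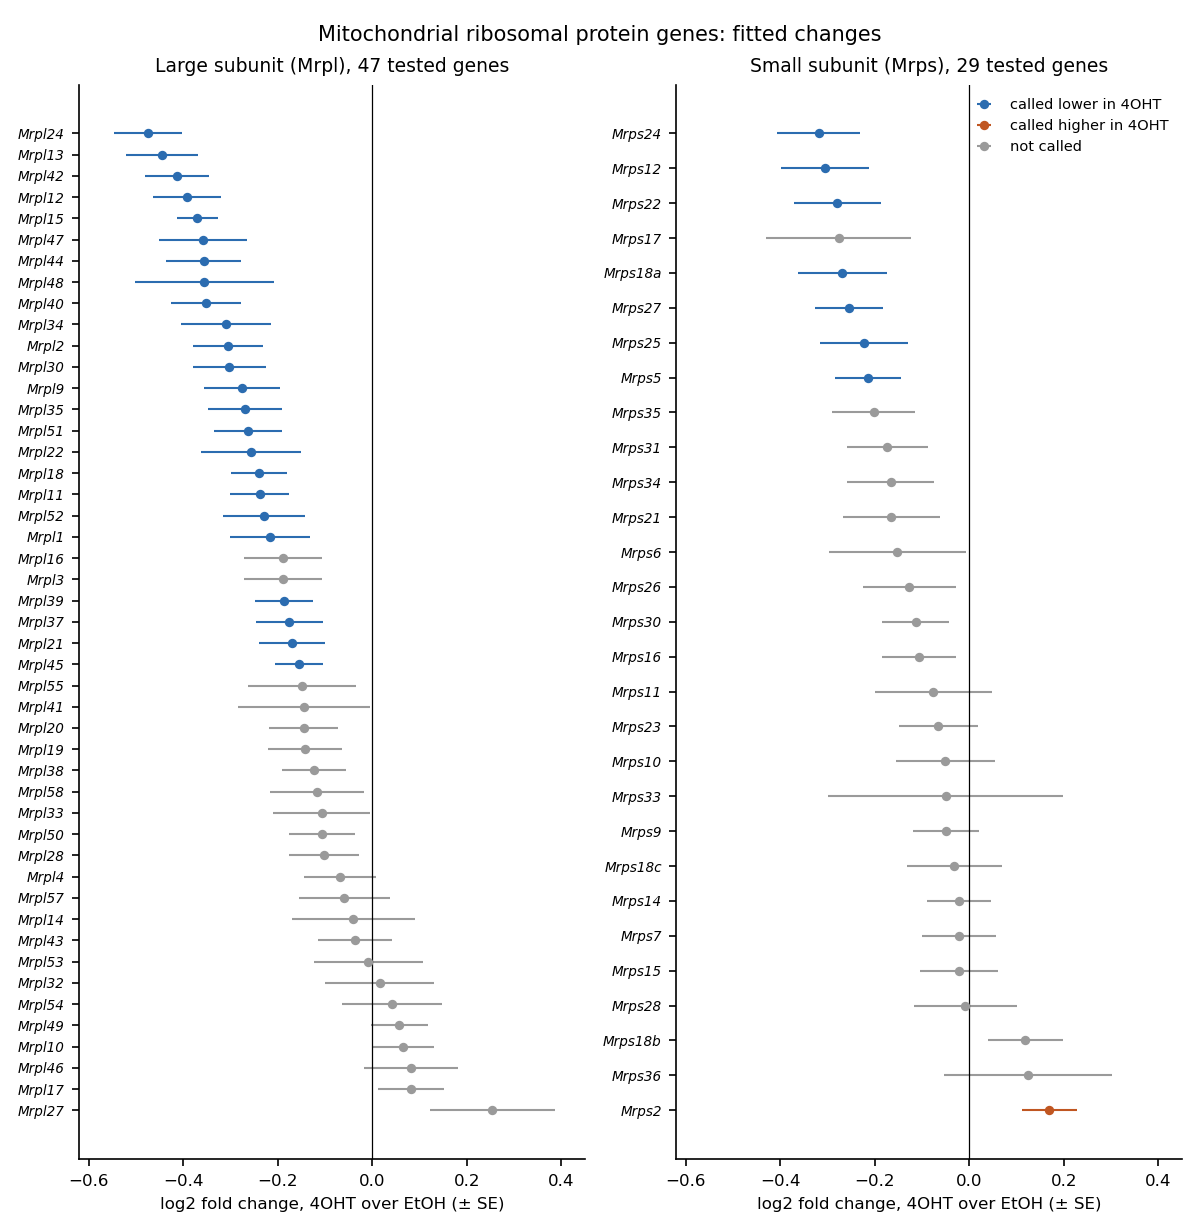
Fitted log2 fold change, 4OHT over EtOH, of the 76 tested genes with its SE (horizontal bars), large subunit names on the left and small subunit names on the right, coloured by call at an adjusted p of 0.05. Most points lie left of zero, from −0.48 for Mrpl24 to 0.25 for Mrpl27, and 1 gene, Mrps2, is called higher.

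The called decreases were between 1.11-fold and 1.39-fold, with a median of 1.21-fold, and 0 reached 1.5-fold. As a log2 fold change the median of the called lower members was −0.28, beside −0.33 over all called lower genes of the table. Every 4OHT library was below every EtOH library for 35 members and above for 3, against 23.7% and 25.1% of all tested genes. As a share of all counts, mitoribosomal genes took 0.401%, 0.410% and 0.394% in the 4OHT libraries and 0.451%, 0.453% and 0.457% in the EtOH libraries. No 4OHT library reached any EtOH library in that share. In bulk RNA, a change in the number of cells that make a transcript and a change in the amount per cell cannot be told apart.

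**Figure D2:**
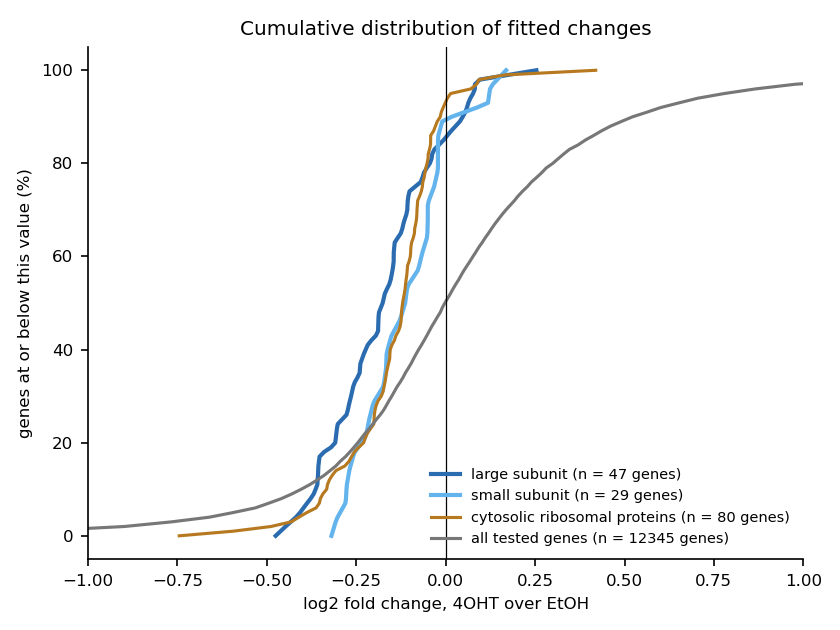
Cumulative share of genes (vertical axis, percent) at or below each log2 fold change, 4OHT over EtOH (horizontal axis), for large subunit genes, small subunit genes, cytosolic ribosomal protein genes and all tested genes; the horizontal axis stops at −1 and 1. The 3 ribosomal protein curves lie left of the curve of all genes over most of their height and are much steeper, with medians of −0.18, −0.11 and −0.12 beside 0.00.

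The largest fitted decreases were all in genes of the large subunit. Mrpl24, a homologue of a bacterial protein beside the exit tunnel (chr3:87918131-87923450), had 60.6, 59.9 and 60.4 CPM in 4OHT and 78.7, 79.1 and 94.7 CPM in EtOH. The 4OHT libraries were nearly equal and all below EtOH, where replicate 3 was the highest. Its log2 fold change was −0.48 (SE 0.07, edgeR adjusted p = 2.5e-09). Of its exon bases, 26.3% are shared with Rrnad1 on the opposite strand, and the strand setting of the counting is not given in the sources used here. Mrpl13, also a homologue of a bacterial ribosomal protein (chr15:55534095-55557312), had 52.1, 53.4 and 54.7 CPM in 4OHT and 74.5, 70.1 and 73.8 CPM in EtOH, without overlap, for a log2 fold change of −0.45 (SE 0.08, edgeR adjusted p = 1.1e-07).

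Mrpl42 encodes a protein with no bacterial counterpart (chr10:95480805-95501949) and had 72.3, 66.4 and 66.5 CPM in 4OHT against 85.8, 92.5 and 94.7 CPM in EtOH. The groups were clearly apart, at a log2 fold change of −0.41 (SE 0.07, edgeR adjusted p = 4.7e-08). A near copy, Gm6419, matches 64.4% of its longest coding transcript at 95% identity or more, so its count may lack or hold reads of the copy. Mrpl15, near the core of the large subunit (chr1:4773198-4785750), had 216, 216 and 217 CPM in 4OHT and 268, 295 and 277 CPM in EtOH. It had the smallest adjusted p of all members, 1.3e-14 by edgeR, at a log2 fold change of −0.37 (SE 0.04), and all 4OHT libraries agreed within 2 CPM.

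The stalk of the large subunit recruits translation factors to the ribosome. Mrpl12, the protein repeated in the stalk's mobile arm (chr11:120484637-120488754), had 66.6, 66.7 and 58.6 CPM in 4OHT and 90.4, 74.8 and 84.9 CPM in EtOH. It did not overlap between groups, and its log2 fold change was −0.39 (SE 0.07, edgeR adjusted p = 7.5e-07). Mrpl11, at the stalk's base, had 88.8, 89.6 and 84.8 CPM in 4OHT and 106.5, 101.0 and 102.1 CPM in EtOH. Every 4OHT library lay below every EtOH library (log2 fold change −0.24, SE 0.06, edgeR adjusted p = 0.00069). Mrpl10, which anchors Mrpl12 to the ribosome, had 88.6, 86.0 and 87.5 CPM in 4OHT and 82.0, 79.6 and 89.3 CPM in EtOH. Its groups overlapped, and its log2 fold change of 0.07 (SE 0.07) was not called (edgeR adjusted p = 0.45). The difference between Mrpl10 and its partners was not tested.

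Of the 5 genes listed for the exit tunnel, through which the new protein leaves, 4 were tested and all 4 fell: Mrpl24, Mrpl44, Mrpl22 and Mrpl45. Mrpl44, a protein of mitochondria with an RNase III-like fold, had 49.9, 50.3 and 48.9 CPM in 4OHT and 61.4, 59.2 and 70.9 CPM in EtOH, at a log2 fold change of −0.36 (SE 0.08, edgeR adjusted p = 6.3e-05). Mrpl45 links the tunnel exit to the inner membrane and had 134, 139 and 136 CPM in 4OHT against 161, 140 and 155 CPM in EtOH. Its libraries came within about 1 CPM of each other across the groups, and its call (log2 fold change −0.16, SE 0.05, edgeR adjusted p = 0.0087) was lost without EtOH replicate 1 (adjusted p = 0.15) and with DESeq2 (adjusted p = 0.067). Mrpl22, a homologue of a protein that lines the bacterial tunnel, had 28.4, 26.7 and 30.3 CPM in 4OHT and 34.2, 33.0 and 35.2 CPM in EtOH, a log2 fold change of −0.26 (SE 0.11, edgeR adjusted p = 0.038). The groups did not overlap, but a near copy, Gm6997, matches 86.0% of its longest coding transcript, and with counts thinned to the smallest library the adjusted p was 0.37. Its call was also lost without 4OHT replicate 1 (adjusted p = 0.072), 4OHT replicate 2 (0.14), EtOH replicate 1 (0.092) or EtOH replicate 3 (0.11). Neither DESeq2 (adjusted p = 0.14) nor the fit with GC and length offsets (0.19) called Mrpl22.

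The central protuberance, the part of the large subunit that faces the head of the small one, had 3 of 6 genes lower, Mrpl40, Mrpl48 and Mrpl18. Mrpl40 had 55.3, 65.6 and 55 CPM in 4OHT and 67.7, 78.4 and 79.5 CPM in EtOH, with 4OHT replicate 2 close to EtOH replicate 1 but no overlap, at a log2 fold change of −0.35 (SE 0.07, edgeR adjusted p = 2.5e-05). Mrpl18, named after the bacterial protein that binds the smallest rRNA, had 101.1, 103.2 and 94.7 CPM in 4OHT and 115, 110 and 128 CPM in EtOH, at −0.24 (SE 0.06, edgeR adjusted p = 0.00030). Mrpl48 was called on 1 library: it had 14.5, 13.7 and 15.8 CPM in 4OHT and 17.3, 14.2 and 25.6 CPM in EtOH. The groups overlapped, and its log2 fold change of −0.36 (SE 0.15, edgeR adjusted p = 0.041) was −0.11 without EtOH replicate 3 (adjusted p = 0.67). Leaving out 4OHT replicate 1 or replicate 2 also ended that call (adjusted p = 0.085 and 0.12), as did DESeq2 (0.18). Mrpl27, Mrpl38 and Mrpl46 were not called.

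Mrpl27, a homologue of the bacterial protein that reaches into the peptidyl transferase centre, had the highest fitted value of all members. It had 23.0, 21.3 and 21.6 CPM in 4OHT and 18.5, 19.4 and 17.0 CPM in EtOH. Every 4OHT library was above every EtOH library, yet the log2 fold change of 0.25 (SE 0.13) missed the threshold (edgeR adjusted p = 0.11), and it passed only with the offsets for GC content and length (adjusted p = 0.030). Near-identical stretches in 41 other genes together match 73.0% of its longest coding transcript, with no single copy behind that share. Mrpl47, which like its bacterial homologue sits at the tunnel exit face, had 35.2, 33.9 and 36.2 CPM in 4OHT and 42.7, 45.2 and 47.7 CPM in EtOH, at −0.36 (SE 0.09, edgeR adjusted p = 0.00063). Its groups did not overlap, and 24.2% of its exon bases lie opposite Actl6a or Ndufb5. Mrpl58, formerly named Ict1, is a peptidyl-tRNA hydrolase that became part of the large subunit. It had 35.8, 34.1 and 33.6 CPM in 4OHT and 39.3, 33.5 and 39.1 CPM in EtOH. It overlapped between the groups and was not called (log2 fold change −0.12, SE 0.10, edgeR adjusted p = 0.36).

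**Figure D3:**
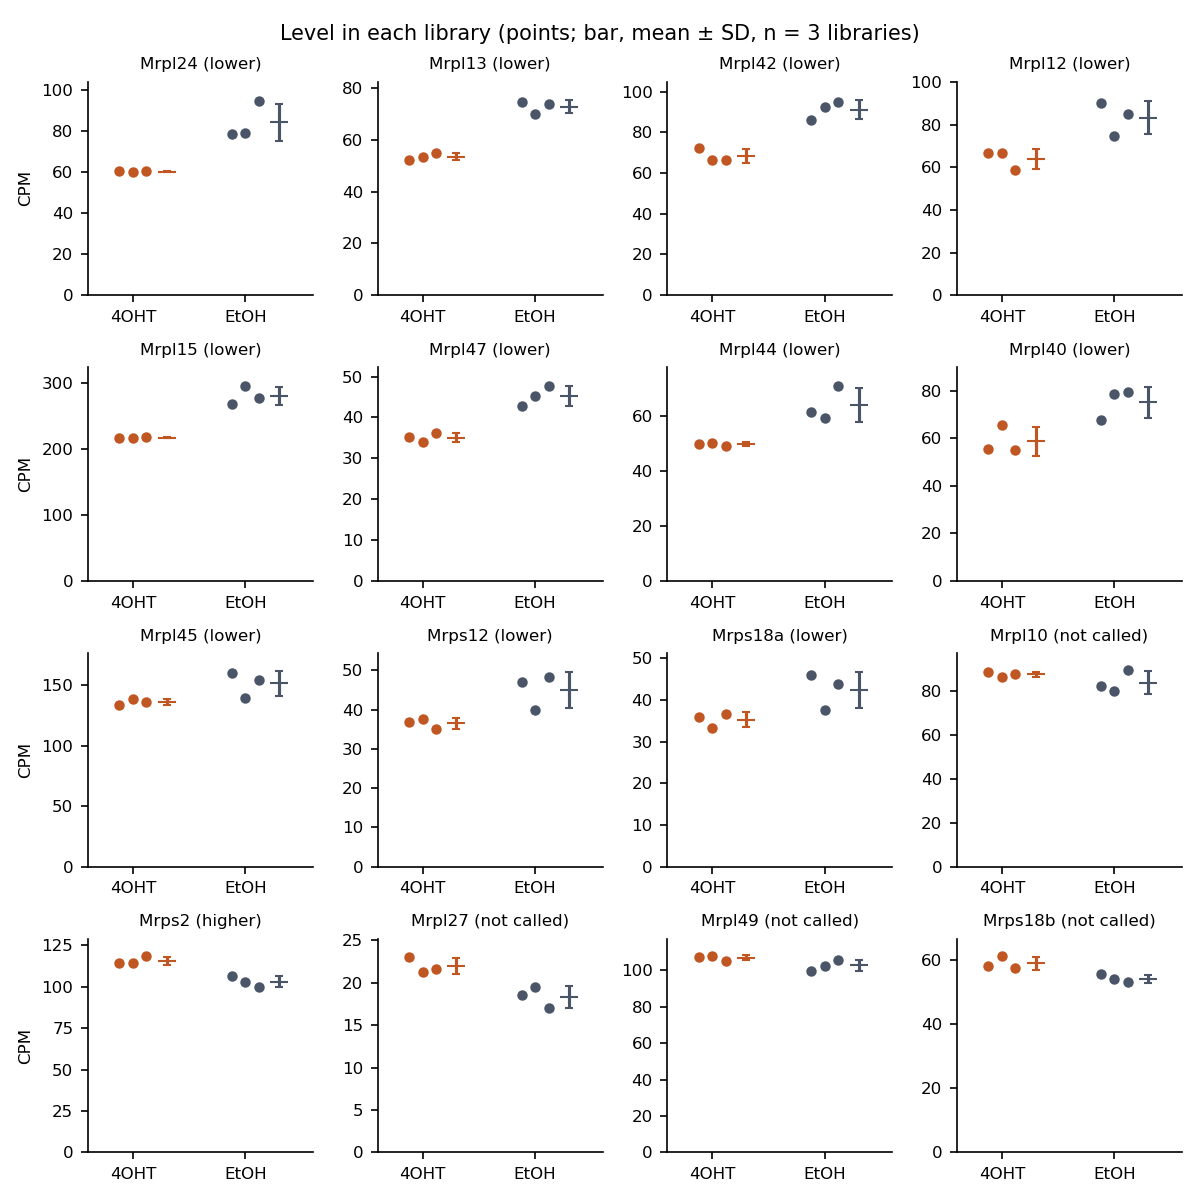
Level of 16 genes in each library (points, CPM, axes from 0), 4OHT left and EtOH right, with the mean and SD of 3 libraries beside the points. Mrpl24, Mrpl13, Mrpl42, Mrpl12, Mrpl15 and Mrpl44 show tight 4OHT groups below EtOH, Mrpl10 and Mrpl49 overlap between groups, and Mrps2, Mrpl27 and Mrps18b lie higher in 4OHT.

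Over the whole large subunit by name, 24 of 47 tested genes were lower and 0 higher, 40 lay below zero, and the median was −0.18. Over the small subunit by name, 7 of 29 were lower and 1 higher, 26 lay below zero, and the median was −0.11. The 24.1% of small subunit genes called lower was near the 20.6% of all tested genes. The median SE was 0.08 for the large and 0.09 for the small subunit, and the median CPM, which here stands for the reads behind a gene and not for its level per length, was 61.2 and 41.8. The small subunit count was 3 with DESeq2 and 4 without 4OHT replicate 3, and its median was −0.04 with the offsets for GC content and length. Whether the subunits differ was not tested. In the structures of mammalian mitoribosomes the proteins of Mrps30 and Mrps18a lie in the large subunit, and Mrps36 is now known as a subunit of the oxoglutarate dehydrogenase complex. Placed by structure, 25 of 49 tested large subunit genes and 6 of 26 tested small subunit genes were lower, with medians of −0.18 and −0.12.

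Mrps24 had the lowest fitted value among small subunit genes, with 33.6, 43.3 and 44.0 CPM in 4OHT and 51.4, 53.6 and 47.5 CPM in EtOH. The 4OHT libraries were spread but all below EtOH, at a log2 fold change of −0.32 (SE 0.09, edgeR adjusted p = 0.0015), and without 4OHT replicate 1 it was −0.22 (adjusted p = 0.059). Mrps12, a homologue of the bacterial protein at the decoding centre, had 36.9, 37.7 and 35 CPM in 4OHT and 47.1, 39.8 and 48.2 CPM in EtOH. It stayed below EtOH in each library, at −0.31 (SE 0.09, edgeR adjusted p = 0.0040). Mrps2, the only member called higher, had 114, 115 and 118 CPM in 4OHT and 106, 103 and 99.6 CPM in EtOH (chr2:28465951-28471177). Its groups did not overlap, at a log2 fold change of 0.17 (SE 0.06, edgeR adjusted p = 0.012). The call was lost without 4OHT replicate 3 (adjusted p = 0.054), without EtOH replicate 3 (0.060), with upper quartile factors (0.050) and with DESeq2 (0.083).

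The Mrps18 family has 3 paralogues of a single bacterial protein, and 1 of their mRNAs was called. Mrps18a had 35.8, 33.2 and 36.7 CPM in 4OHT and 45.9, 37.5 and 43.8 CPM in EtOH, and was called lower (log2 fold change −0.27, SE 0.09, edgeR adjusted p = 0.015), although not without 4OHT replicate 2 (adjusted p = 0.069), EtOH replicate 1 (0.15) or EtOH replicate 3 (0.056). That call was also lost with DESeq2 (adjusted p = 0.092) and with the GC and length offsets (0.055). Mrps18b had 57.9, 61.1 and 57.3 CPM in 4OHT and 55.4, 54.0 and 52.9 CPM in EtOH. It lay above EtOH in every 4OHT library but was not called (log2 fold change 0.12, SE 0.08, edgeR adjusted p = 0.23). Mrps18c had 35.2, 36.4 and 32.0 CPM in 4OHT and 33.8, 32.8 and 39.4 CPM in EtOH, overlapping, at −0.03 (SE 0.10, edgeR adjusted p = 0.83). The difference among the paralogues was not tested, 30.5% of the exon bases of Mrps18b lie opposite another gene, and 23.2% of those of Mrps18c are shared with one on its own strand.

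Proteins with a bacterial homologue and proteins that only mitochondria have were compared by their gene numbers, with Mrpl up to 36 and Mrps up to 21 taken as homologues. Of the homologues 17 of 42 tested were lower and 1 higher (median −0.16), and of the mitochondria-specific genes 14 of 32 were lower and 0 higher (median −0.16). Mrpl47, Mrps24 and Mrps28 are homologues in spite of their numbers. With these 3 moved the counts were 19 lower and 1 higher of 45, against 12 lower and 0 higher of 29. Mrps36 had 8.68, 12.3 and 12.3 CPM in 4OHT and 10.7, 10.9 and 9.35 CPM in EtOH. It overlapped between groups and was not called (log2 fold change 0.12, SE 0.18, edgeR adjusted p = 0.61).

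Per length, the members were expressed within a fairly narrow range. In TPM, the level scaled by gene length and computed from the counts and the deposited gene lengths, 57 of the 78 averaged between 50 and 200 over the 6 libraries. The highest were Mrpl42 at 271 ± 41.4, Mrpl52 at 263 ± 32.5, Mrpl18 at 256 ± 24.0, Mrpl20 at 241 ± 21.1 and Mrps16 at 229 ± 12.3 TPM (SD, n = 6), and each of these differed from its neighbour by less than the SD. These SDs pool both groups and so also hold the difference between them: Mrpl42 averaged 235 TPM in 4OHT and 307 TPM in EtOH. The lowest were Mrpl36 at 0.934 ± 0.841, Mrpl23 at 6.32 ± 2.87, Mrps33 at 11.8 ± 0.611, Mrps25 at 15.1 ± 1.40 and Mrpl41 at 16.9 ± 2.29 TPM (SD, n = 6). The tested members spanned 23.0-fold. The scale rests on the deposited length, which is 6076 bases for Mrps25, 2423 for Mrpl41 and 666 for Mrpl42. The summed level of all members was 7839 ± 103 TPM in 4OHT and 8671 ± 83.8 TPM in EtOH (SD, n = 3 each). Large subunit genes together had 1.92 ± 0.03 times the TPM of small subunit genes in 4OHT and 2.05 ± 0.01 times in EtOH.

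**Figure D4:**
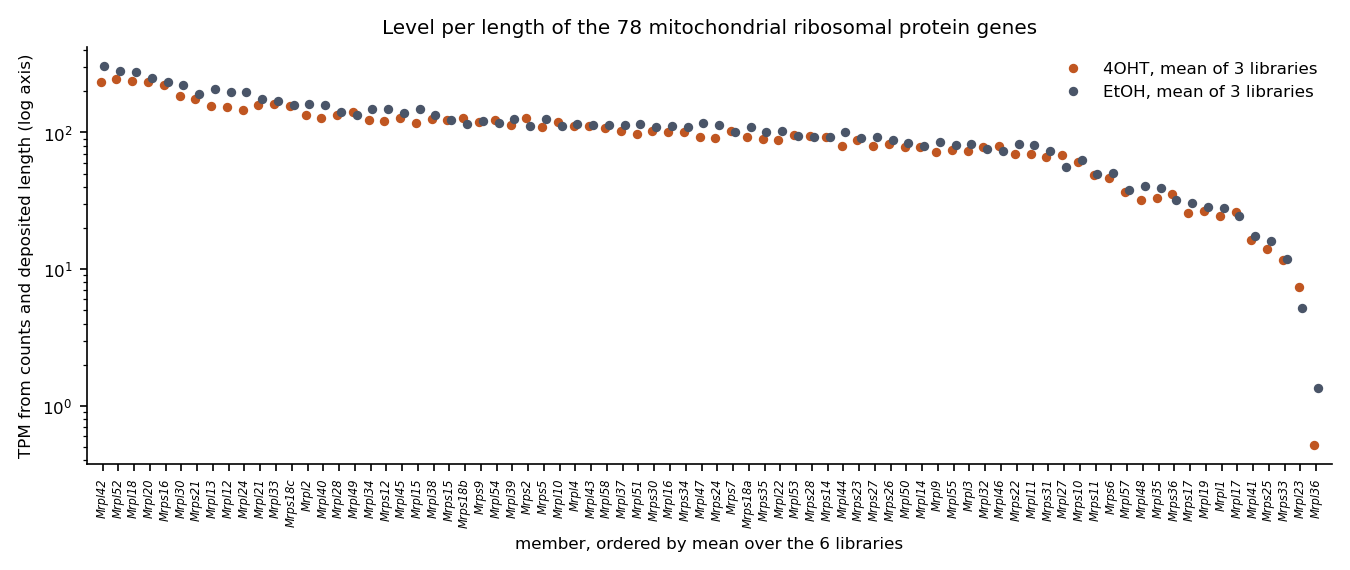
Mean TPM of each of the 78 genes over 3 libraries per group, 4OHT and EtOH, on a log axis, ordered by the mean over 6 libraries. Levels fall from 271 TPM for Mrpl42 to 0.934 TPM for Mrpl36, and 57 genes average between 50 and 200 TPM.

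Among the genes at the ends of this order, Mrpl52, a protein found only in mitochondria, had 41.0, 51.0 and 40.8 CPM in 4OHT and 56.0, 52.0 and 47 CPM in EtOH. The groups overlapped through 4OHT replicate 2, and its call (log2 fold change −0.23, SE 0.09, edgeR adjusted p = 0.024) was lost without 4OHT replicate 1 (adjusted p = 0.12), 4OHT replicate 3 (0.19) or EtOH replicate 1 (0.21) and with the GC and length offsets (0.30). DESeq2 did not call Mrpl52 either (adjusted p = 0.15). Mrpl20 had 76.2, 67.1 and 60.1 CPM in 4OHT and 80.0, 70.3 and 71.8 CPM in EtOH, overlapping, at −0.15 (SE 0.07, edgeR adjusted p = 0.099). It was called without 4OHT replicate 1 (−0.22, adjusted p = 0.020) and with upper quartile factors (adjusted p = 0.036). Mrps16, of the small subunit body, had 56.0, 56.8 and 53.1 CPM in 4OHT and 60.0, 61.7 and 56.3 CPM in EtOH, with a slight overlap, at −0.11 (SE 0.08, edgeR adjusted p = 0.28). Mrps25 had 38.8, 36.6 and 36.6 CPM in 4OHT and 41.5, 41.1 and 48.2 CPM in EtOH, and was called lower without overlap (−0.22, SE 0.09, edgeR adjusted p = 0.043). Opposite it lies Nr2c2, over 69.8% of its exon bases, and the call was lost without 4OHT replicate 2 (adjusted p = 0.090), 4OHT replicate 3 (0.12) or EtOH replicate 3 (0.27). With DESeq2 the adjusted p of Mrps25 was 0.16.

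Mrpl41 and Mrps33 were low in both groups and overlapped. Mrpl41 had 19.5, 15.7 and 16.7 CPM in 4OHT and 19.7, 21.2 and 15.7 CPM in EtOH (log2 fold change −0.15, SE 0.14, edgeR adjusted p = 0.43). Mrps33 had 5.86, 5.41 and 5.0 CPM in 4OHT and 5.84, 5.20 and 5.66 CPM in EtOH (log2 fold change −0.05, SE 0.25, edgeR adjusted p = 0.90). Neither showed a difference beyond its spread, and Mrps33 is the member with the widest SE. The remaining 2 genes failed the filter on low counts and were not tested. Mrpl23, the fifth exit tunnel gene, had 14, 6 and 10 counts in 4OHT and 6, 5 and 7 counts in EtOH, and a pseudogene, Mrpl23-ps1, matches 68.9% of its longest coding transcript. Mrpl36 had 2, 1 and 0 counts in 4OHT and 1, 2 and 4 counts in EtOH. A count of 0 in the deepest library allows a level of up to 0.467 CPM, at 3 counts over the library total, which covers counting error only, so a difference in Mrpl36 was not detectable at this depth.

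Of the 38 members above the median CPM, those with the most reads, 20 were lower, and of the 38 at or below it 11 were lower; the difference was not tested. A set of 55 tested genes shared under 20% of their exon bases with another gene and had under 20% of the transcript in near copies. Of these 55, 23 were lower and 1 higher, and of the other 21 tested genes 8 were lower. The exon bases are those of all annotated transcripts and can exceed the deposited length, as for Mrpl13 with 7936 against 786 bases. The shares may therefore differ from those of the counted sequence, and the part of overlaps and copies in the calls was not tested. 16 genes were lower in the main analysis and under all alternatives at the 0.05 threshold: Mrpl2, Mrpl9, Mrpl11, Mrpl12, Mrpl13, Mrpl15, Mrpl18, Mrpl24, Mrpl30, Mrpl40, Mrpl42, Mrpl44, Mrpl47, Mrpl51, Mrps12 and Mrps27. They lie on many chromosomes, as the members do: the 78 genes are on 17 chromosomes, with 11 genes on chromosome 11.

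A gene starting on the opposite strand within 1000 bases was annotated for 33 of 78 members (42.3%) and for 16.6% of 11509 tested protein-coding genes. The distance was taken in either direction. Such a pair may therefore diverge from a shared promoter region or overlap at its starts, as Mrpl43 and Twnk do. Among the tested members 15 of 32 with such a neighbour were lower, and 16 of 44 without. RefSeq's promoter windows on GRCm38.p6, 250 bases before to 50 after the start, covered 69 of the 78. They were searched on both strands for 4 short core motifs: CCGGAAG, bound by ETS factors such as Gabpa; AAGATGGC, bound by Yy1; GCGCATGC, the centre of the Nrf1 site; and the E-box CACGTG, bound by Tfe3 and many other factors. The E-box reads the same on both strands, and matches of the Nrf1 core on opposite strands can overlap. These 69 members had 75 windows, so some members had several, and a match in any of them was counted. The ETS core was in 26 of the 69 members (37.7%), against 20.9% of tested genes and 9.93% of all genes with a window. The Yy1 core was in 12 (17.4%), against 5.48% and 3.19%, and the Nrf1 core in 8 (11.6%), against 6.35% and 3.05%. The E-box was in 5 (7.25%), against 12.2% and 8.09%.

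Motifs stood before both called and uncalled genes. The ETS core was in 11 of 29 lower and 15 of 37 uncalled members with a window, the Yy1 core in 7 and 4, the Nrf1 core in 3 and 5, and the E-box in 2 and 2. In 8 of the 12 members with the Yy1 core it lay 11 to 36 bases after the start and read in the direction of the gene, and 6 of these 8 genes were lower. Of all 69 members with a window 29 were lower, and whether the 8 differ from them was not tested. A match describes the letters and shows no binding. To show how close these motifs lie to the start, the 100 bases before it are given for 3 lower genes with the ETS core, of which Mrpl22 also has the Nrf1 core, and for an uncalled gene with the E-box. Capitals mark the motifs, and the sequences are RefSeq's on GRCm38.p6, 5′ to 3′ on the strand of the gene; the start used for Mrpl22 lies inside the span of its gene.
Mrpl22, chr11:58171564-58171663, plus strand, lower, ETS and Nrf1 cores: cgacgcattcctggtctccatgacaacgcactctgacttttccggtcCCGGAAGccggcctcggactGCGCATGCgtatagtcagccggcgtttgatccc
Mrpl34, chr8:71464826-71464925, plus strand, lower, ETS core: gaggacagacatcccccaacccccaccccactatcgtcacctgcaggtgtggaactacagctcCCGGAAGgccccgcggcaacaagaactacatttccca
Mrps22, chr9:98601680-98601779, minus strand, lower, ETS core: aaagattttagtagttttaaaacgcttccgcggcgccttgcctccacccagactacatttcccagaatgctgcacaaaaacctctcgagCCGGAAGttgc
Mrpl20, chr4:155802778-155802877, plus strand, not called, E-box: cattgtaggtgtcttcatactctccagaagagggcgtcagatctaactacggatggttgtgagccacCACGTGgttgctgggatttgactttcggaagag

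Mrpl34 and Mrps22, chosen for printing after their values were seen, were both lower. Mrpl34 had 35.6, 35.5 and 32.8 CPM in 4OHT and 38.1, 47 and 43.8 CPM in EtOH, without overlap (log2 fold change −0.31, SE 0.10, edgeR adjusted p = 0.0046), and its adjusted p was 0.072 without EtOH replicate 2. Mrps22, a protein of the small subunit without a bacterial homologue, had 37.1, 38.4 and 35.5 CPM in 4OHT and 43.1, 49.3 and 42.1 CPM in EtOH, also without overlap (−0.28, SE 0.09, edgeR adjusted p = 0.0087), and its adjusted p was 0.055 without 4OHT replicate 3 and 0.11 without EtOH replicate 2. With DESeq2 the adjusted p of Mrps22 was 0.066.

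Lists of other genes of mitochondrial gene expression are given beside the 20.6% of all tested genes called lower and the 21.4% called higher, and their shares of lower calls lay on both sides of that background. Of 5 mitoribosomal proteins known by other symbols 4 fell: Ptcd3, a pentatricopeptide repeat protein of the small subunit, had 174, 167 and 169 CPM in 4OHT and 220, 212 and 210 CPM in EtOH (log2 fold change −0.34, SE 0.05, edgeR adjusted p = 6.7e-11). Also called lower were Aurkaip1 (−0.30, SE 0.07, edgeR adjusted p = 8.9e-05), Chchd1 (−0.19, SE 0.07, adjusted p = 0.016) and Dap3 (−0.16, SE 0.06, adjusted p = 0.012). Chchd1 overlapped between groups, with 91.2, 80.6 and 73.7 CPM in 4OHT and 88.0, 92.0 and 97.4 CPM in EtOH. The call of Dap3 was lost without 4OHT replicate 1 (adjusted p = 0.10) or EtOH replicate 1 (0.15) and with DESeq2 (0.082). Gadd45gip1, in the large subunit, was not called (−0.16, SE 0.09, edgeR adjusted p = 0.17). With DESeq2 2 of the 5 were lower.

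Of 27 assembly factors 2 were lower and 1 higher (median −0.10), and the 7.41% lower was under the share of all genes. Gtpbp10, a GTPase of large subunit assembly, had 35.8 ± 2.28 CPM in 4OHT and 46.2 ± 6.31 CPM in EtOH (SD, n = 3 each; log2 fold change −0.38, SE 0.09, edgeR adjusted p = 0.00035). Tfb1m, which methylates the small subunit rRNA, was called lower (log2 fold change −0.28, edgeR adjusted p = 0.045). Mterf4 was the 1 called higher (0.23, edgeR adjusted p = 0.047). Both were at the threshold. Tfb1m failed it without any 1 library other than 4OHT replicate 1 (adjusted p between 0.063 and 0.14). Mterf4 failed it without any 1 library other than EtOH replicate 3 (0.052 to 0.17). DESeq2 called neither Tfb1m (adjusted p = 0.16) nor Mterf4 (0.18). Of 18 translation factors 5 were lower and 0 higher (median −0.15), or 3 lower without EtOH replicate 2, and the 27.8% lower was near the share of all genes. They included Mrrf, which recycles the ribosome (−0.47, SE 0.12, edgeR adjusted p = 0.00044), the elongation factor relative Guf1 (−0.45, SE 0.10, adjusted p = 8.8e-05) and Gfm2, which works with Mrrf (−0.30, SE 0.06, adjusted p = 1.3e-05).

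Of 17 mitochondrial aminoacyl-tRNA synthetases 5 were lower and 0 higher (median −0.13), and the 29.4% lower was likewise near that share. Yars2, which charges the mitochondrial tRNA for tyrosine, had 49.7, 51.0 and 46.1 CPM in 4OHT and 59.4, 63.7 and 60.5 CPM in EtOH, without overlap (log2 fold change −0.33, SE 0.08, edgeR adjusted p = 0.00030). Of 14 genes of mitochondrial DNA upkeep and transcription 6 were lower and 0 higher (median −0.33), or 42.9% lower. Ssbp1, which coats single-stranded mitochondrial DNA, had 62.1, 62.6 and 57.5 CPM in 4OHT and 94.7, 83.6 and 92.5 CPM in EtOH (−0.58, SE 0.07, edgeR adjusted p = 1.7e-13). Tfam, which packages that DNA and starts its transcription, had 90 ± 2.71 CPM in 4OHT and 116 ± 3.28 CPM in EtOH (SD, n = 3 each; −0.37, SE 0.06, edgeR adjusted p = 2.8e-08).

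Of the mRNAs encoded in mitochondria 8 of 13 were tested, with 5 lower and 1, mt-Nd3, higher (log2 fold change 0.61, SE 0.19, edgeR adjusted p = 0.012); 0 were higher without 4OHT replicate 1 or EtOH replicate 3. The decreases were small, such as mt-Cytb at −0.20 (SE 0.03, edgeR adjusted p = 2.9e-12). They depended on the correction for GC content and length, with which 1 was lower and mt-Nd1, at −0.10 (adjusted p = 0.00091) without it, was at 0.04 (adjusted p = 0.11). All genes of the mitochondrial chromosome in the count table, not the mRNAs alone, together took 2.25%, 2.21% and 2.34% of all counts in 4OHT. In EtOH they took 2.49%, 2.38% and 2.52%.

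Of 10 regulators of nuclear genes for mitochondria 9 were tested. Mycn, a Myc family factor, fell most, with 105, 96.3 and 98.9 CPM in 4OHT and 321, 317 and 307 CPM in EtOH (log2 fold change −1.66, SE 0.05, edgeR adjusted p = 1.3e-94). Myc had 75 ± 2.59 CPM in 4OHT and 91.3 ± 5.83 CPM in EtOH (SD, n = 3 each; −0.28, SE 0.07, edgeR adjusted p = 0.00014). Gabpb1, the partner of Gabpa, was called lower (−0.25, SE 0.08, edgeR adjusted p = 0.0057), but not without 4OHT replicate 3 (adjusted p = 0.10) or with DESeq2 (0.053). Nrf1 (−0.03, SE 0.07), Gabpa (0.00, SE 0.05) and Yy1 (−0.13, SE 0.06) were not called, with edgeR adjusted p of 0.74, 0.99 and 0.058. Ppargc1b was called higher (0.47, SE 0.20, edgeR adjusted p = 0.046), but 0 regulators were higher without 4OHT replicate 1, 2 or 3 or EtOH replicate 1 or 3. Any part of these regulators in the changes of the mitoribosomal genes was not tested.

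**Figure D5:**
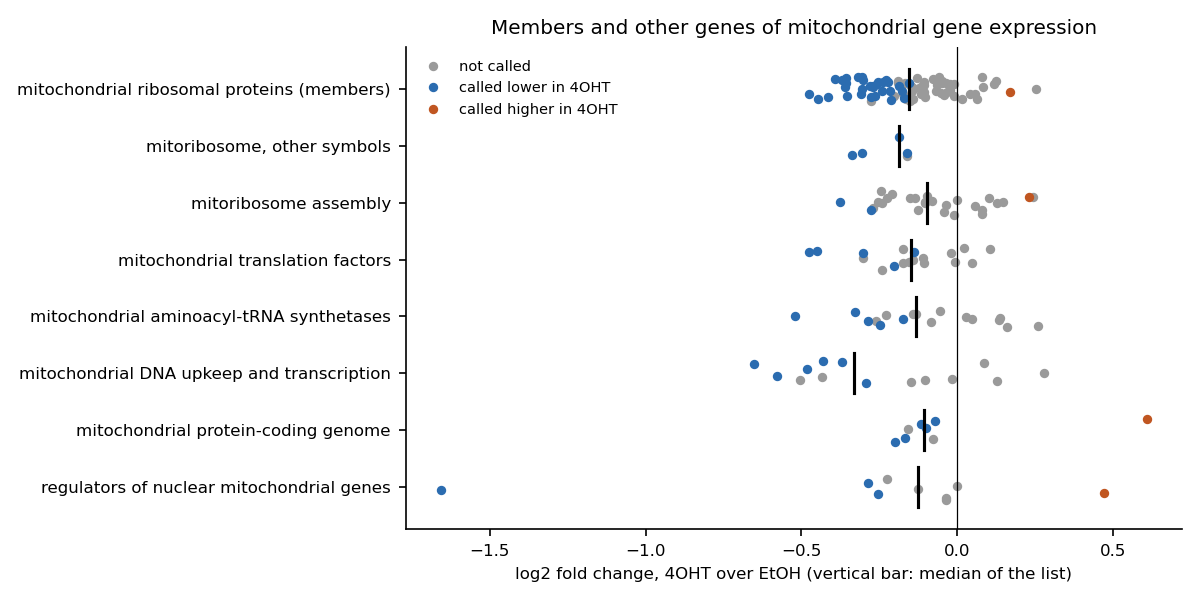
Fitted log2 fold change, 4OHT over EtOH, of each tested gene (points, coloured by call; vertical scatter only separates points) in the mitoribosomal set and 7 related lists, with a bar at each list's median. The medians run from −0.33 for DNA upkeep and transcription to −0.10 for assembly factors, and Mycn stands apart at −1.66.

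Cytosolic ribosomal proteins build the ribosomes that make the imported proteins. Of 80 tested genes 40 were lower and 1 higher, with a median of −0.12. With the GC and length offsets the counts were 18 and 5, and the 22.5% lower was then near the 20.7% of all genes. Rpl36al, a cytosolic large subunit gene, averaged 124 ± 7.24 CPM in 4OHT and 155 ± 1.58 CPM in EtOH (SD, n = 3 each; log2 fold change −0.32, SE 0.05, edgeR adjusted p = 2.7e-08). Whether the cytosolic and the mitochondrial genes differ in this was not tested.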

How the data were processed

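RNA was sequenced in 6 libraries made with a stranded mRNA kit, per the labels' protocols. The authors deposited raw counts per gene with a gene length in bases. The submitters' processing notes name fastp, STAR, featureCounts and mm10. No source used here gives their versions, the annotation, the strand setting or the handling of multi-mapping reads.

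Genes were kept by filterByExpr (minimum count 10, total 15), scaled with TMM factors and compared by edgeR 4.0.16 (robust quasi-likelihood fit, R 4.3.3), with p-values adjusted by Benjamini-Hochberg over the whole set of 12345 and called under 0.05. SEs are the absolute log2 fold change over the square root of F. CPM uses TMM-scaled sizes of the tested genes. TPM uses the deposited lengths. The common dispersion was 0.00129. The steps were tested on simulated data. Replicates differed by more than counting error (lowest chi-square per degree of freedom 1.40).

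Positions and promoters are RefSeq's on GRCm38.p6, and 9 members had no promoter window. The motifs were chosen after values were seen, and the Nrf1 core replaced a longer, gapped form searched first, which a larger number of members held. Overlaps and near copies (at least 95% identity over 100 bases, BLAST 2.17.0) are against GENCODE for GRCm38.

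The members, lists and tests were chosen with earlier results of these data known. Named by rule were the 8 largest called decreases and increases without overlap, the 5 highest and 5 lowest by TPM, genes that failed the filter, Mrps18a, Mrps18b, Mrps18c, Mrpl10, Mrpl11, Mrpl12, Mrps12, Mrpl45, Mrpl58 and Mrps36, and up to 3 called genes per related list, of which 1 is not reported here; all other named genes, the placement by structure and the choice of printed promoters were chosen after values were seen. Alternatives were size factors from DESeq2, upper quartile scaling, filters of none or of 1 CPM in 3 libraries, a replicate block, leaving out each library, DESeq2 1.42.0, limma-voom (3.58.1), a threshold of 0.01, leaving out Rn45s and mitochondrially encoded genes, and, added after seeing the data, GC and length offsets (loess span 0.4) and thinning to the smallest library. Plots were made with matplotlib 3.10.9.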

Additional observations from a re-analysis of the deposited data

How the results depend on the processing

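The number of members lower in 4OHT was 31 in the main analysis, 19 with DESeq2, and 25 to 31 when 1 library was left out. It was 34 with DESeq2 size factors, 37 with upper quartile factors, 25 without a filter, 30 with limma-voom, 23 at a threshold of 0.01, and 25 with GC and length offsets. The number higher was 1 in the main analysis, 0 with upper quartile factors, with DESeq2 and at 0.01, 2 with GC and length offsets, and 0 to 1 when 1 library was left out, with 0 without 4OHT replicate 3 or EtOH replicate 3. The median log2 fold change was −0.15, ran from −0.18 to −0.14 when 1 library was left out, and was −0.19 with upper quartile factors, which moved the median of all genes to −0.04, and −0.10 with GC and length offsets; the cause was not tested. For single members, 1189 of 1292 values under alternatives stayed on the same side of the threshold, 82 lost their call and 21 gained one. These values include those of the 44 members not called in the main analysis, which had no call to lose. Uncalled members could change sign, as Mrps7 did, with log2 fold changes from −0.10 to 0.06. Of related genes, mt-Nd1 was at 0.044 with GC and length offsets. With the replicate block 32 members were lower and 1 higher, and the replicate block was not used because same-numbered libraries did not deviate together (correlations of −0.02 in each of 3 pairs, with 0 pairs closest to their own number). Depth limited the tests of Mrpl23 and Mrpl36, and the widest SE, 0.25, belonged to Mrps33.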
